A study of Mus musculus with 12 samples.

Results

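Splicing factors and heterogeneous nuclear ribonucleoproteins (hnRNPs) were followed across RNA-seq libraries of mouse aortic endothelial cells. Genes were taken from the table of normalised counts by symbol: the SR proteins (Srsf followed by a digit), the hnRNPs (Hnrnp), the SF3a and SF3b subunits, the core proteins of the small nuclear ribonucleoproteins (Snrp followed by a to g or a digit), U2AF (U2af) and the RNA-binding motif proteins (Rbm followed by a digit). The rule found 80 of 10655 genes, namely 10 Srsf, 19 Hnrnp, 9 Sf3, 11 Snrp, 3 U2af and 28 Rbm genes, and used no expression value. All 80 matched a gene of the GENCODE M21 annotation (mouse build GRCm38), and all 80 passed the filter of a mean normalised count of at least 1.

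The libraries form 4 groups of 3, named by the mother's diet and then the offspring's diet, where WD is Western diet and CD the control diet of the labels. They are WD_WD (both Western), CD_WD (offspring alone on Western diet), WD_CD (mother alone on Western diet) and CD_CD (both control). According to the series text, offspring of the Western-diet arms received that diet a second time, for 4 weeks. Genotype, sex, age and batch are not in the labels, and nothing says whether replicates are separate animals, so p-values measure only the spread between these libraries, which may be technical. Offspring diet and any unlabelled difference in preparation between the groups cannot be told apart.

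Introns are removed by the spliceosome, which is built from small nuclear RNAs carrying a ring of Sm proteins, together with proteins particular to each small nuclear ribonucleoprotein (snRNP). U1 recognises the 5′ splice site, U2AF recognises the polypyrimidine tract and the AG at the 3′ splice site, and the SF3a and SF3b complexes of U2 hold the branch point. SR proteins mostly bind exonic enhancers and promote the use of nearby sites, while many hnRNPs repress sites or package RNA, and several Rbm proteins tune alternative exons, so that the balance among them shapes the isoforms a cell makes.

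The table held between 4074413 reads (WD_WD replicate 3) and 19670570 reads (CD_CD replicate 1) per library, of which the 80 genes took 0.429 to 0.723% in WD offspring and 0.734 to 0.843% in CD offspring. The 20 most abundant genes of each library took 35.4 to 46.2% of its reads in WD offspring against 12.9 to 14.4% in CD offspring. Endothelial markers were present in both arms, but 15 of 16 were lower in WD offspring, where their mean lay at 6.28 to 10.1 on the log2 scale against 10.8 to 11.6 in CD offspring, and Robo4 had 0 reads in WD_WD replicate 2. Of 10 smooth muscle markers, 9 were lower (mean 5.43 to 9.08 in WD offspring, 9.39 to 11.9 in CD offspring; Lmod1 at 0 reads in CD_WD replicate 1). All 10 MHC class II, dendritic and B cell markers were higher (mean 12.1 to 15.9 in WD offspring, 6.98 to 10.7 in CD offspring; Flt3 at 0 reads in 2 CD offspring libraries and Cd79b in 1), as were all 5 neutrophil markers (10.6 to 13.5 in WD offspring, 2.55 to 7.58 in CD offspring; Il1r2 or Csf3r at 0 in 3 CD offspring libraries). Called higher were also 8 of 12 macrophage, 6 of 10 T and NK cell, 4 of 12 cell cycle and 7 of 12 dissociation-response genes, and called lower 2 of 7 fibroblast genes. CD_WD replicate 1 stood apart, with the lowest endothelial mean and the highest MHC class II mean of the 12. Because offspring diet moved with these markers, their part in every result below was not tested.

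Averaged over both mothers' diets, more splicing genes were higher than lower in WD offspring under the deposited size factors. In limma's fit over all 12 libraries and all 10655 genes, 29 of the 80 rose and 2 fell at an adjusted p under 0.05, against a background of 20.1% of all genes called higher and 17.6% called lower. The median log2 fold change of the 80 was 0.45, beside −0.02 for all genes tested, and 58 of the 80 were positive. The libraries of the 2 arms did not overlap for 20 genes that were higher and 1 that was lower, where 12.6 and 9.69% of all genes met the same condition. In bulk samples fewer cells of a type and less RNA per cell cannot be told apart. The direction depended on the scaling. With libraries scaled to their total reads, 6 of the 80 were called higher and 43 lower (6.05 and 56.9% of all genes), the median of all genes moved to −1.40 and that of the 80 to −0.93, still above it. With TMM scaling (median of all genes −0.13), 26 were called higher and 6 lower (18.5 and 20.2% of all genes).

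**Figure D1:**
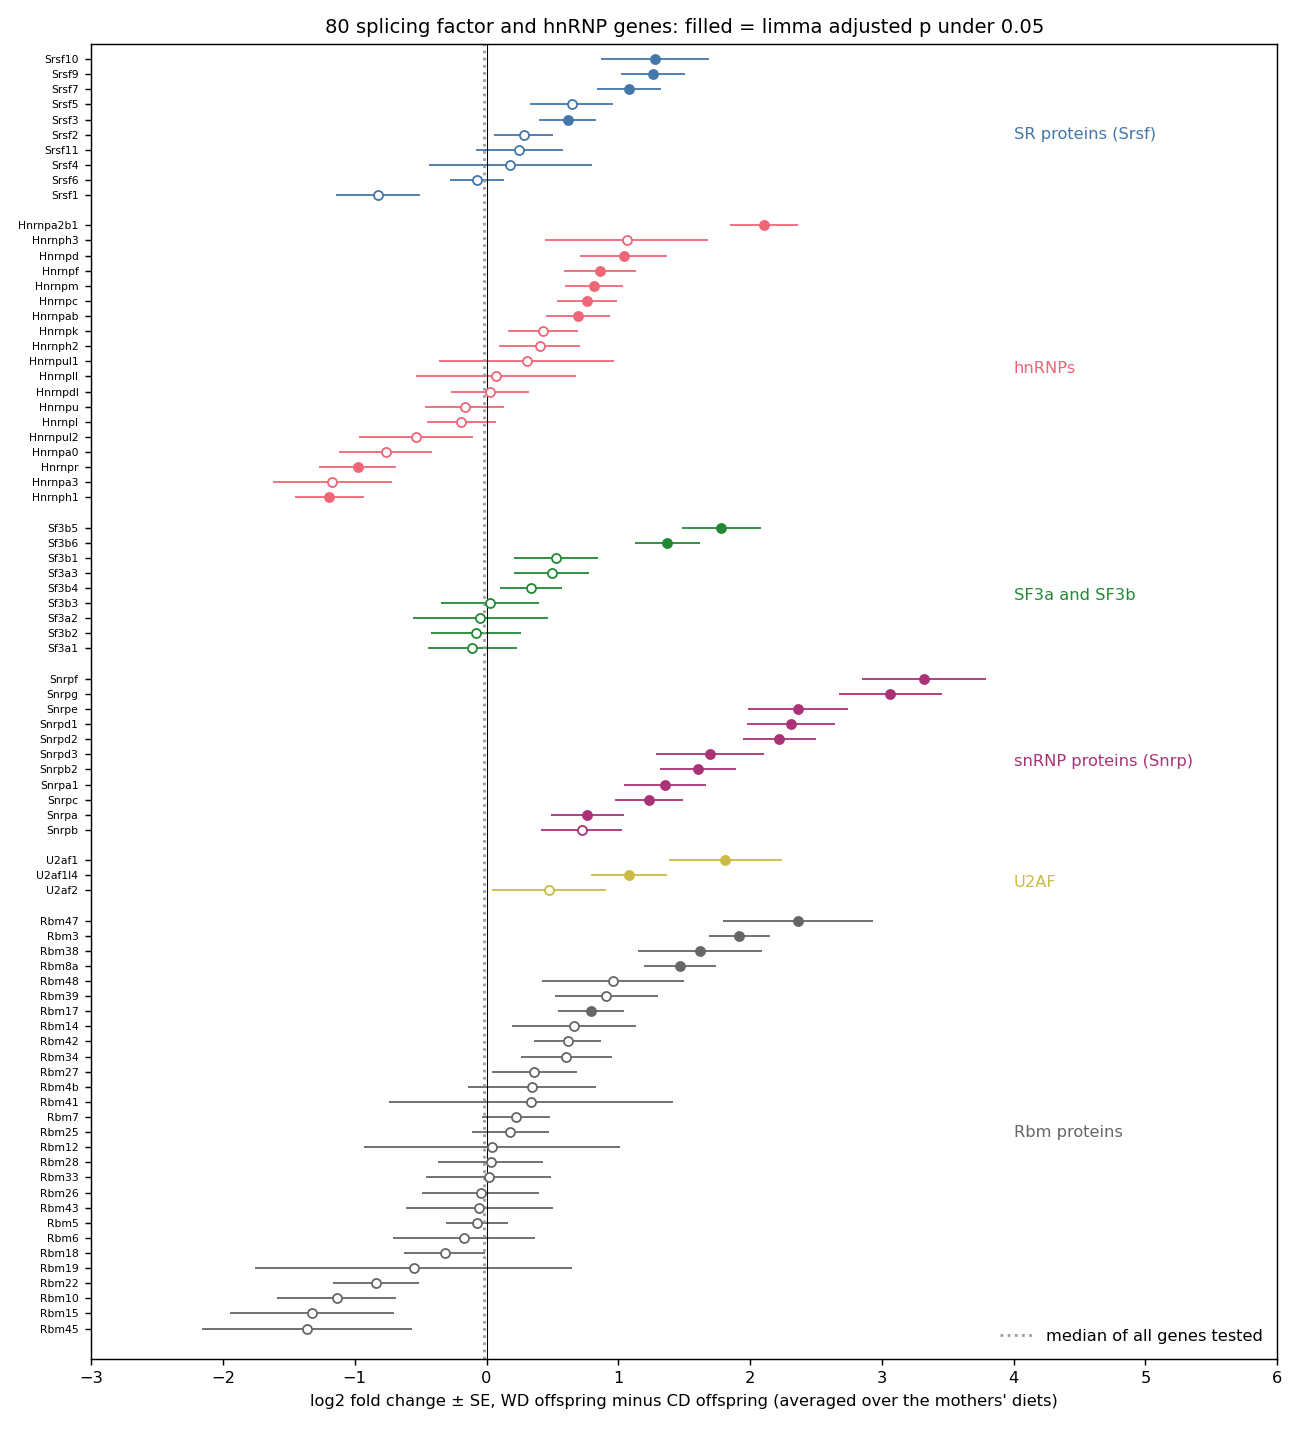
Log2 fold change (x axis, WD offspring minus CD offspring, averaged over the mothers' diets, ± SE) of each of the 80 genes (y axis), grouped by family and ordered within it; filled points passed limma's adjusted p of 0.05. The 11 snRNP proteins all lie right of 0 under the deposited size factors, at 0.72 to 3.32, whereas hnRNPs span −1.19 to 2.11; scaled to total reads, 7 of the 11 snRNP proteins and 1 of the 19 hnRNPs stay positive.

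The Sm proteins, which form the heptameric ring around the spliceosomal small nuclear RNAs, had a higher median than any of the 6 families. Of the 7 ring genes (Snrpb, Snrpd1, Snrpd2, Snrpd3, Snrpe, Snrpf and Snrpg), 6 rose in WD offspring, all but Snrpb. The median log2 fold change of all 7 was 2.31. Scaled to total reads, 5 were still called higher and Snrpb was called lower. Snrpf (chr10:93583029-93589706, minus strand) ranged over 166, 267 and 920 normalised counts in the 6 WD offspring libraries (lowest, median, highest), against 20.4, 32.1 and 37.2 in the 6 CD offspring libraries. Snrpg (chr6:86371304-86379328, plus strand) ranged over 4413, 5518 and 25581 in WD offspring, against 654, 770 and 1202 in CD offspring. Neither gene overlapped between the arms, and for both the highest value was CD_WD replicate 1. The log2 fold change was 3.32 ± 0.47 (SE) for Snrpf and 3.06 ± 0.39 for Snrpg, with limma adjusted p of 2.26e-04 and 1.06e-04.

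Of the remaining ring genes, Snrpd2, Snrpe, Snrpd1 and Snrpd3 rose at smaller sizes, and Snrpb was not called. Snrpd2 had 2748, 3178 and 8331 normalised counts in WD offspring, against 695, 787 and 982 in CD offspring (log2 fold change 2.22 ± 0.28, limma adjusted p 9.59e-05). Snrpe had 1400, 1898 and 7464 in WD offspring, against 329, 430 and 598 in CD offspring (2.36 ± 0.38). Snrpd1 had 676, 1231 and 2194 in WD offspring, against 152, 294 and 349 in CD offspring (2.31 ± 0.33). Each of these separated the arms completely. Snrpd3 also separated them, but 5 of its 6 WD offspring libraries lay between 360 and 812 and CD_WD replicate 1 at 2429, against 91.6 to 267 in CD offspring (1.70 ± 0.41, adjusted p 0.00649). Snrpb, whose product is SmB, overlapped: 1944, 3203 and 7150 in WD offspring, against 1256, 2241 and 2941 in CD offspring (0.72 ± 0.31, adjusted p 0.0811). Without CD_WD replicate 1 the fold changes of the 6 called ring genes were smaller, at 2.97 for Snrpf, 2.66 for Snrpg and 1.36 for Snrpd3, and all stayed called.

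**Figure D2:**
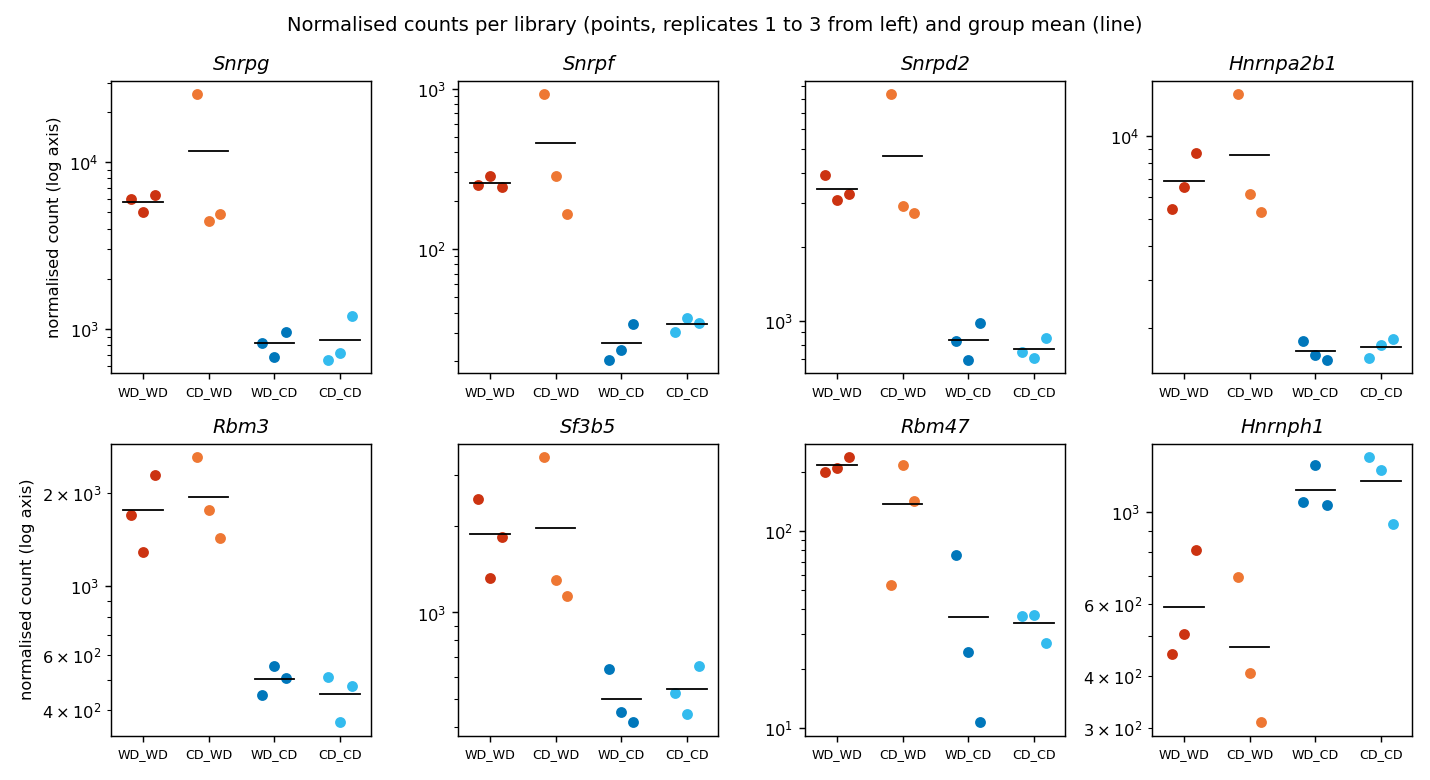
Normalised counts (y axes, log scale) of 8 genes in each library (points) with the group mean (line), groups in the order WD_WD, CD_WD, WD_CD, CD_CD. Snrpg, Snrpf, Snrpd2, Hnrnpa2b1, Rbm3 and Sf3b5 lie higher in all 6 WD offspring libraries than in any CD offspring library and Hnrnph1 lower, while Rbm47 overlaps because CD_WD replicate 1 (53.2) is below WD_CD replicate 1 (75.5).

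Proteins particular to U1 and U2 rose too under the deposited size factors. Snrpb2, the U2 B″ protein that binds U2 RNA, had 673, 1059 and 2140 normalised counts in WD offspring, against 256, 385 and 451 in CD offspring (log2 fold change 1.61 ± 0.29, limma adjusted p 0.00118). Its partner Snrpa1 (U2 A′) had 614, 1198 and 1648 in WD offspring, against 314, 405 and 609 in CD offspring (1.35 ± 0.31). The U1 proteins Snrpc, which helps U1 engage the 5′ splice site, and Snrpa, which binds a U1 RNA stem-loop, followed with 1.23 ± 0.26 and 0.77 ± 0.28. In all, 10 of 11 Snrp genes were called higher; scaled to total reads, 5 were called higher and 1 lower, with a median of 0.29.

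Of the SF3a and SF3b subunits, Sf3b5 and Sf3b6, both small proteins of SF3b, rose under the deposited size factors. Sf3b5 had 1141, 1572 and 3453 normalised counts in WD offspring, against 417, 490 and 651 in CD offspring (log2 fold change 1.78 ± 0.30, limma adjusted p 7.21e-04). Sf3b6, the subunit p14 that contacts the branch point adenosine, had 1023, 1346 and 1889 in WD offspring, against 336, 567 and 654 in CD offspring (1.37 ± 0.25, adjusted p 0.00119). Neither overlapped between the arms; scaled to total reads, Sf3b6 was at −0.04 and Sf3b5 at 0.37, neither called. The other 7 subunits were not called, at −0.11 to 0.53, including the scaffold Sf3b1, with 1991, 3159 and 9459 in WD offspring and 1870, 2355 and 2897 in CD offspring (0.53 ± 0.32, adjusted p 0.209). Sf3b2, with the highest mean normalised count after Sf3b1, was at −0.08 ± 0.34, and its sign changed with DESeq2, with the length curve removed and without any of 3 single libraries.

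Of the U2AF genes, U2af1, the small subunit that reads the 3′ splice site AG, had 337, 718 and 2023 normalised counts in WD offspring, against 131, 224 and 381 in CD offspring (log2 fold change 1.81 ± 0.43, limma adjusted p 0.00598); CD_WD replicate 2 fell below the highest CD offspring library. Its paralog U2af1l4 had 554.3, 874 and 1383 in WD offspring, against 265, 397 and 553.7 in CD offspring (1.08 ± 0.29, adjusted p 0.0109), an edge-to-edge separation, and was at −0.33 with total-read scaling. The large subunit U2af2, which binds the polypyrimidine tract, was not called (0.47 ± 0.43).

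Among SR proteins, 4 of 10 rose and none fell, with a median log2 fold change of 0.45; scaled to total reads, none was called higher and 6 lower, close to the 56.9% of all genes called lower. Srsf9 had 822, 990 and 1506 normalised counts in WD offspring, against 303, 424 and 677 in CD offspring (1.27 ± 0.24, limma adjusted p 0.00162). Srsf7, an SR protein with a zinc knuckle that also adapts mRNA for export, had 2678, 3304 and 5854 in WD offspring, against 1297, 1577 and 2318 in CD offspring (1.08 ± 0.24, adjusted p 0.00444). Both separated the arms, Srsf9 from 677 to 822. Srsf10 (1.28 ± 0.41), a repressor when dephosphorylated, and Srsf3 (0.61 ± 0.21) were called with overlapping libraries. Srsf1, the founding SR protein, lay on the other side: 129, 275 and 461 in WD offspring, against 355, 513 and 603 in CD offspring (−0.83 ± 0.32, adjusted p 0.0573, not called). Srsf5, with the highest mean normalised count after Srsf7, was not called (0.65 ± 0.32, adjusted p 0.125).

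The hnRNPs split in both directions, with 6 called higher and 2 lower of 19; scaled to total reads, 1 was called higher and 13 lower, beside 56.9% of all genes called lower. Hnrnpa2b1 (chr6:51460932-51469894, minus strand), which sorts RNAs for transport and is described as a reader of m6A-marked transcripts, had 5291, 6344 and 14236 normalised counts in WD offspring, against 1539, 1674 and 1837 in CD offspring. The arms lay far apart, and the CD offspring values were close together. Its log2 fold change was 2.11 ± 0.26 (limma adjusted p 9.27e-05), and it remained called with total-read scaling (0.69). The others called higher were Hnrnpd (AUF1, an AU-rich element binder; 1.04 ± 0.33), Hnrnpf (a binder of G runs; 0.86 ± 0.27), Hnrnpm (0.82 ± 0.22), Hnrnpc (a binder of uridine tracts; 0.76 ± 0.23) and Hnrnpab (0.69 ± 0.24). Hnrnpf, Hnrnpm and Hnrnpc did not overlap between the arms. For Hnrnpf and Hnrnpc the separation was edge to edge. The lowest WD offspring library was at 1693 and 1798, against the highest CD offspring library at 1674 and 1782, in that order.

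Hnrnph1 (chr11:50376990-50386528, plus strand), a G-run binder related to Hnrnpf, moved the other way. It had 309, 479 and 812 normalised counts in WD offspring, against 937, 1165 and 1363 in CD offspring. Every WD offspring library was below every CD offspring library. The log2 fold change was −1.19 ± 0.26 (limma adjusted p 0.00357), −1.20 after the length correction given below and −2.60 with total-read scaling. Hnrnpr fell with overlap, at 167, 220 and 384 in WD offspring against 342, 453 and 580 in CD offspring (−0.98 ± 0.29, adjusted p 0.0192). Hnrnpa3, at 57.6, 84.1 and 347 in WD offspring against 173, 243 and 375 in CD offspring, was not called (−1.17 ± 0.45, adjusted p 0.0571). Hnrnpk, the poly(C) binder, with the highest mean normalised count of the hnRNPs after Hnrnpa2b1, was not called (0.43 ± 0.27). Genes such as Hnrnpa3, Snrpe and Snrpg have near-identical processed copies in the genome, so their counts are uncertain where reads could be split; the treatment of such reads is not stated in the labels.

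Of the 28 Rbm genes 5 rose and none fell, a share of 17.9% that is near the background of 20.1%; scaled to total reads, none was called higher and 16 lower, close to the 56.9% of all genes called lower. Rbm3 (chrX:8138975-8145880, minus strand), a cold-inducible protein, had the lowest adjusted p of all 80. Its counts were 1295, 1727 and 2609 in WD offspring, against 365, 493 and 553 in CD offspring, without overlap (1.92 ± 0.23, limma adjusted p 7.97e-05). Rbm8a, the Y14 subunit of the exon junction complex, had 1770, 2313 and 4979 in WD offspring, against 821, 949 and 1283 in CD offspring, also without overlap (1.47 ± 0.27, adjusted p 0.00129). Rbm47 (chr5:66016549-66173118, minus strand), known as a cofactor of APOBEC1 in RNA editing, had 53.2, 205 and 238 in WD offspring, against 10.7, 32.2 and 75.5 in CD offspring. Its low WD offspring value was CD_WD replicate 1 (2.36 ± 0.57, adjusted p 0.0064). Rbm38, an RNA-binding target of p53 (1.62 ± 0.47), and Rbm17, the splicing factor SPF45 (0.79 ± 0.25), completed the calls. Rbm39, the Rbm gene with the highest mean normalised count, was at 3329, 4301 and 20543 in WD offspring, against 2332, 2834 and 3515 in CD offspring, and was not called (0.91 ± 0.39, adjusted p 0.0814). Rbm10 (−1.14), Rbm15 (−1.33), Rbm22 (−0.84) and Rbm45 (−1.36) were the most negative, none of them called.

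Transcript length moved with these results. Across the other genes with an annotated length, the median log2 fold change for offspring diet was 1.54 for transcripts under 1000 bases (858 genes, 63.4% called higher) and −0.92 for those of 5000 bases and over (1378 genes, 5.66% called higher). The 7 Sm ring genes had a median transcript length of 1055 bases, against 2644 for genes outside the 80, and the 29 genes called higher had a median of 1647 bases. After a smooth curve of log2 deviation on log10 length was subtracted from each library, an alternative chosen after seeing the data, 20 of the 80 were called higher and 2 lower, with 16.6 and 14.2% of all genes called. The median of the 80 was then 0.54. Of the 29, 18 kept the call and 11 lost it.

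The genes that lost it included the shortest. Snrpe, of 550 bases, was at 0.31 (adjusted p 0.412) with the length curve removed, and Snrpd1, of 670 bases, at 0.61 (adjusted p 0.121). Snrpc (0.14), Snrpa (0.22), Rbm17 (0.43) and Srsf9 (0.55) also lost theirs, and U2af1l4 was at −0.42. U2af1 (0.82), Snrpa1 (0.73), Hnrnpd (0.82) and Hnrnpab (0.57) lost the call at limma adjusted p of 0.154, 0.0878, 0.0949 and 0.0823, the last pair with folds not far below those as deposited (1.04 and 0.69). Snrpg (2.19), Snrpf (2.08), Hnrnpa2b1 (1.77), Snrpd2 (1.74), Rbm8a (1.62), Snrpb2 (1.51), Snrpd3 (1.42) and Rbm3 (1.25) kept theirs. Longer genes gained in size: Rbm47, of 4643 bases, was at 3.04, Sf3b5, of 3841 bases, at 2.27, and Sf3b1 and Rbm27 were newly called at 1.36 and 1.20. Hnrnpa3 was newly called lower (adjusted p 0.027), while Hnrnpr no longer was (−0.81, adjusted p 0.0512).

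**Figure D3:**
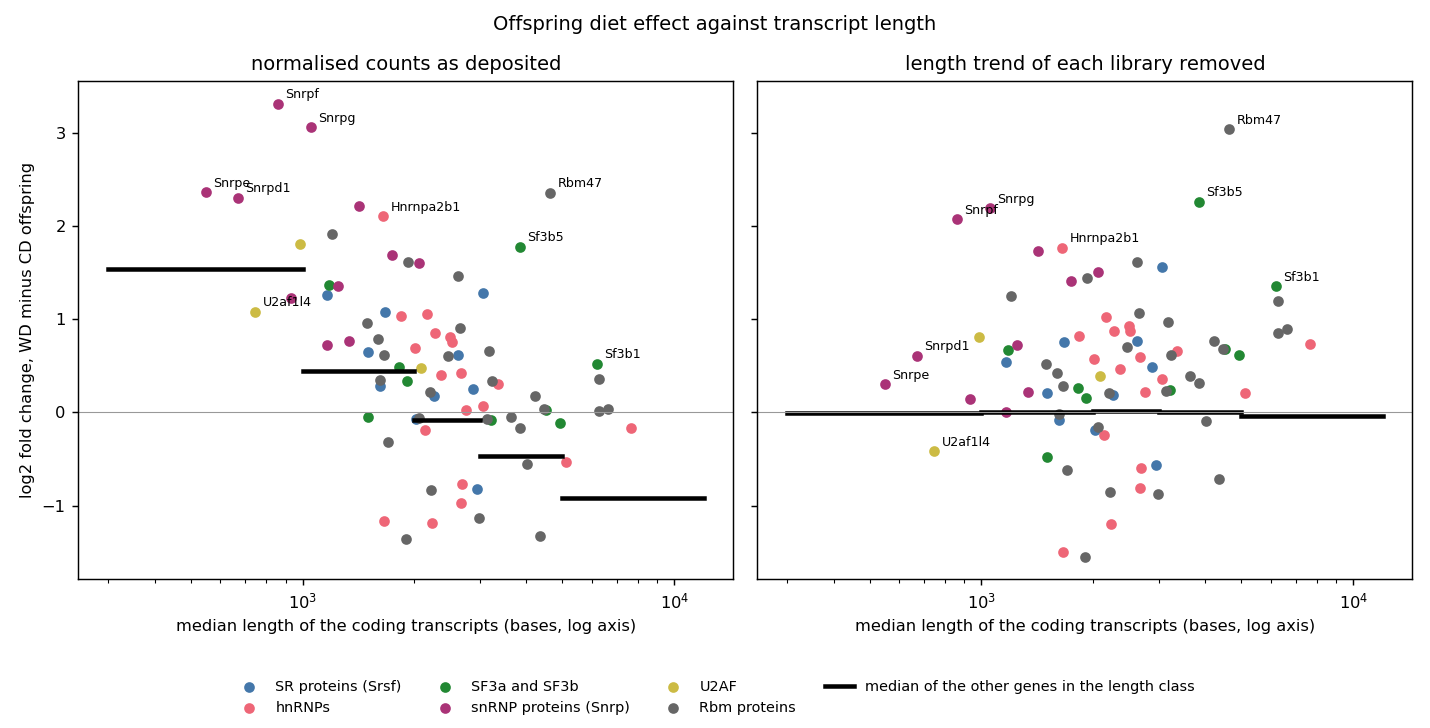
Log2 fold change for offspring diet (y axis, WD minus CD offspring) of the 80 genes (points, by family) against the median length of their coding transcripts (x axis, log scale), with the median of the other genes per length class (black lines); left, deposited values, right, after the length curve of each library was removed. On the left the medians of the other genes run from 1.54 down to −0.92 with length; on the right they lie near 0, and Snrpe and Snrpd1 come down to 0.31 and 0.61 while Rbm47 goes up to 3.04.

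Promoters are shown for 4 genes that were called higher and 1 that was called lower both with and without the length curve, and whose arms separated. The windows cover 200 bases upstream of the RefSeq start (GRCm38.p6), 5′ to 3′ on the gene's strand, and capitals mark matches on either strand to the ETS core CGGAAG, the CCAAT box, the GC box GGGCGG and the TATA box TATAAA. The windows are chr10:93589659-93589858 (minus strand) for Snrpf, chr6:86371340-86371539 (plus) for Snrpg, chr7:19149638-19149837 (plus) for Snrpd2, chr6:51469895-51470094 (minus) for Hnrnpa2b1 and chr11:50376790-50376989 (plus) for Hnrnph1. The GENCODE gene starts differ for some. The whole Snrpg window lies inside its GENCODE gene, which starts at 86371304. Part of the window does for Snrpd2 (start 19149722) and Snrpf (start 93589706), so those bases are upstream of the RefSeq start only.
Snrpf: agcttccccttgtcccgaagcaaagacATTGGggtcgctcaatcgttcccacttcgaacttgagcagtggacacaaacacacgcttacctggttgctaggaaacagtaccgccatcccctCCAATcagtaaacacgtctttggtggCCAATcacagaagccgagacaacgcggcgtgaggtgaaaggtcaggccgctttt
Snrpg: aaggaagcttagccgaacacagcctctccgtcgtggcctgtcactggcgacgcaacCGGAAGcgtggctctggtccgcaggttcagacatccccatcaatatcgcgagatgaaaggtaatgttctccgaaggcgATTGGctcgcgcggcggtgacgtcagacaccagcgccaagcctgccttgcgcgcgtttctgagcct
Snrpd2: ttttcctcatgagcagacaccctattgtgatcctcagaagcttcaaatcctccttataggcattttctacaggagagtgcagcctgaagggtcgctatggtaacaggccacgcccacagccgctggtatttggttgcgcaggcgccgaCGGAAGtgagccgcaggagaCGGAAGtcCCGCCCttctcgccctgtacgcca
Hnrnpa2b1: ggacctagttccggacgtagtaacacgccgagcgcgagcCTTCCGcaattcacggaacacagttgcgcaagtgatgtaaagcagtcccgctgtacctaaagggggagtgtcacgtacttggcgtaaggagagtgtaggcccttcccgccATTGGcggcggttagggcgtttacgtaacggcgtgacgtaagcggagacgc
Hnrnph1: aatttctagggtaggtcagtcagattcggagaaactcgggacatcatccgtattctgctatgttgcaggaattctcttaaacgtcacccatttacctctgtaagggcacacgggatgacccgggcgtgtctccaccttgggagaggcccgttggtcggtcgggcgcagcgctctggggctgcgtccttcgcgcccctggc
Snrpf held 3 CCAAT boxes, Snrpg and Hnrnpa2b1 1 ETS core and 1 CCAAT box each, Snrpd2 2 ETS cores and 1 GC box, and Hnrnph1 no match in this window, which says only that these letters are not in it. Hnrnph1 has 5 RefSeq start windows and Hnrnpa2b1 has 2, of which only the first listed is shown. Over the full windows of 250 bases before to 50 after the start, available for 69 of the 80 genes (88 windows), 47.7% of the members' windows held the ETS core, against 31.3% of windows of genes in the table and 16.9% of all promoters. CCAAT was in 44.3% of the members' windows, against 36.8% of table genes and 37.4% of all, and the GC box in 62.5%, against 62.9 and 35.7%. TATAAA was in 10.2%, against 7.13 and 13.6%. Different motifs overlapped in 3 of the members' windows.

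The offspring diet effect was then taken separately by mother's diet, in libraries that the 2 comparisons do not share. With CD mothers (CD_WD minus CD_CD), 14 of the 80 rose and Hnrnph1 fell, where 9.46% of all genes were called higher and 5.55% lower; the median was 0.48, beside −0.02 for all genes. With WD mothers (WD_WD minus WD_CD), 17 rose and none fell, where 14.2% of all genes were called higher and 10.2% lower; the median was 0.43, beside 0.01. Without overlap of libraries were 34 higher and 3 lower with CD mothers (21.9 and 21.6% of all genes) and 31 higher and 3 lower with WD mothers (21.9 and 19.4%). Scaled to total reads, 3 were called higher and 23 lower with CD mothers (2.73 and 38.5% of all genes), and 2 higher and 27 lower with WD mothers (4.12 and 40.2%). With the length curve removed the counts were 10 higher and 1 lower with CD mothers (5.54 and 2.82%), and 9 higher and none lower with WD mothers (9.22 and 6.08%).

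In both sets of libraries 12 of the 80 genes rose, where 7.74% of all genes were called higher in both: Snrpd1, Snrpd2, Snrpe, Snrpf, Snrpg, Snrpa1, Snrpb2, Sf3b5, Sf3b6, Hnrnpa2b1, Rbm3 and Rbm8a. Of these, Snrpd2, Snrpg, Snrpb2, Sf3b5, Hnrnpa2b1 and Rbm8a kept both calls with the length curve removed. Snrpf and Rbm3 kept the call with CD mothers alone, and Snrpd1, Snrpe, Snrpa1 and Sf3b6 lost both. Snrpf was at 3.34 with CD mothers and 3.29 with WD mothers, Snrpg at 3.31 and 2.82, and Hnrnpa2b1 at 2.18 and 2.03, in that order of mothers. Snrpd3 was called with CD mothers (2.46, limma adjusted p 0.0149) and not with WD mothers (0.94, adjusted p 0.251). CD_WD replicate 1, at 2429, is in the difference with CD mothers, and enters the p with WD mothers through the spread that all 12 libraries share. Rbm47 was called with WD mothers (2.93, adjusted p 0.0204), at 200, 209 and 238 in the WD_WD libraries against 10.7, 24.3 and 75.5 in the WD_CD libraries, and not with CD mothers (1.79, adjusted p 0.156). Srsf9, U2af1 (1.82), U2af1l4 (1.20) and Snrpc (1.36) were likewise called with WD mothers alone, and Srsf7 (1.19) and Hnrnph1 (−1.40) with CD mothers alone. None of these differences between mothers passed the test of the interaction given below.

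These counts depended on single libraries. With CD mothers the 15 calls became 5 without CD_CD replicate 1 and 9 without CD_CD replicate 2, while calls over all genes went to 698 and 705, against 1599 with every library. With WD mothers the 17 calls became 26 without CD_WD replicate 1 and 11 without WD_CD replicate 2, with 3335 and 1593 over all genes, against 2604 with every library. Snrpf, Snrpg, Snrpd2, Hnrnpa2b1 and Rbm3 stayed called with both mothers' diets whichever single library was left out. That holds for the deposited values, since Snrpf and Rbm3 lost the call with WD mothers once the length curve was removed. Over the 80 genes, 63 had the same sign in both comparisons (78.8%), against 79.6% of all genes, and the correlation across genes was 0.74, against 0.76 for all genes, a description over genes, which are not independent of each other.

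**Figure D4:**
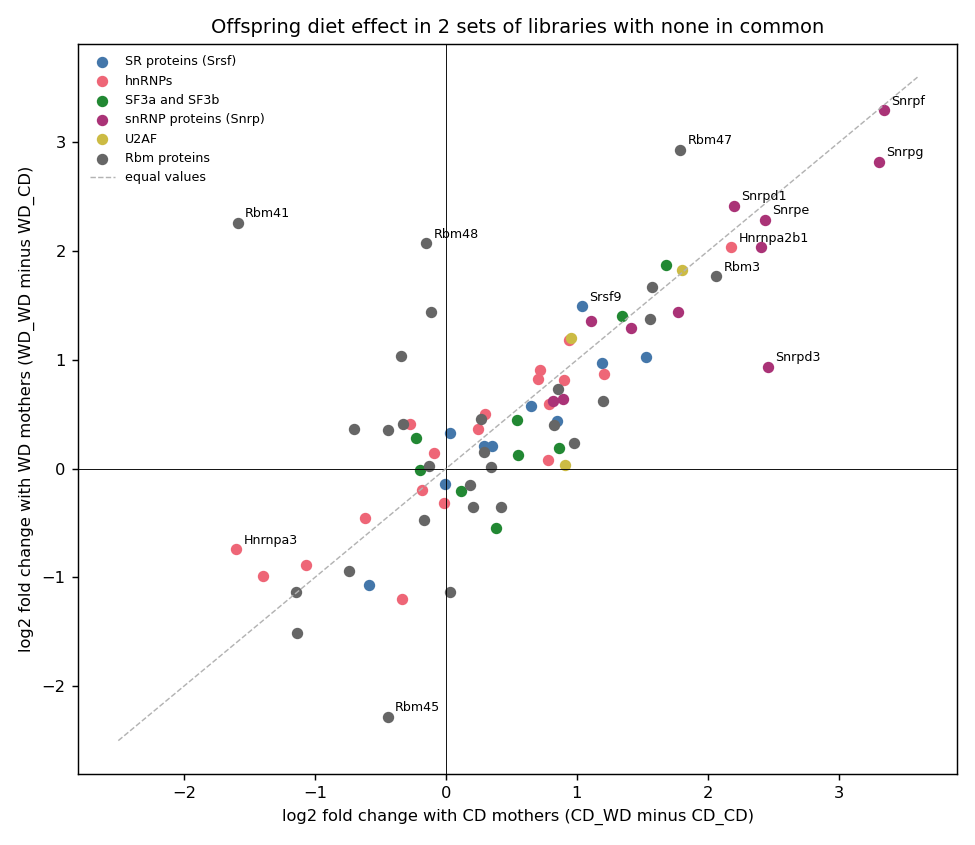
Log2 fold change for offspring diet with CD mothers (x axis, CD_WD minus CD_CD) and with WD mothers (y axis, WD_WD minus WD_CD) for the 80 genes, coloured by family; the dashed line marks equal values. Snrpf and Snrpg lie at the upper right (3.34 and 3.29, 3.31 and 2.82), Snrpd3 below the line (2.46 and 0.94) and Rbm47 above it (1.79 and 2.93).

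The mother's diet was asked about within each offspring diet, which is the comparison behind the title of the series. In CD offspring (WD_CD minus CD_CD) limma called none of the 80 and none of all genes (0% background), and none of the 80 had an unadjusted p under 0.05; edgeR and DESeq2 on the recovered reads called none of the 80 either, DESeq2 calling 9 genes in all. Libraries did not overlap for 2 higher and 4 lower genes, where 4 and 4.87% of all genes met that condition. The median was 0.01 and the values ran from −2.60 for Rbm41 to 0.99 for Rbm34. Rbm34 had 337, 225 and 371 normalised counts in WD_CD replicates 1 to 3, against 90.2, 203 and 193 in CD_CD. Rbm41, which is named in the minor spliceosome, had 0, 23.9 and 24.1 in WD_CD, against 224, 11.03 and 49.9 in CD_CD, a wide spread at low counts. The next by unadjusted p were Rbm5 (0.54) and Srsf6 (0.33) among the higher and Rbm14 (−1.28) and Rbm6 (−1.11) among the lower, with every adjusted p at 1.00. The authors' deposited table of this comparison has 13 genes with an adjusted p under 0.05, none of them among the 80, and 2 of the 80 with an unadjusted p under 0.05; the lowest adjusted p of the 80 was 0.9999, with log2 fold changes of 0.94 for Rbm34 and −2.57 for Rbm41.

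In WD offspring (WD_WD minus CD_WD) again none of the 80 and none of all genes was called by limma (0% background), none of the 80 had an unadjusted p under 0.05, and edgeR and DESeq2 called none of the 80 (DESeq2 14 of all genes). Rbm19, a nucleolar protein of ribosome assembly, had 2.57, 71.3 and 7.92 normalised counts in WD_WD, against 233, 176 and 83.5 in CD_WD (−3.52 ± 1.70, adjusted p 0.836); its libraries did not overlap, as was so for 1 higher gene and no other lower one (5.86 and 4.16% of all genes). Snrpd3 had 437, 456 and 360 in WD_WD, against 2429, 433 and 812 in CD_WD (−1.19, adjusted p 0.846). Sf3b2 had 1140, 1295 and 927 in WD_WD, against 5398, 1117 and 1504 in CD_WD (−0.91). The CD_WD means of both rest on replicate 1, and without it the values were −0.51 for Snrpd3 and −0.22 for Sf3b2. On the positive side Rbm48 (1.30), Hnrnpa3 (0.97) and Rbm4b (0.86) had the smallest p. The authors' deposited table has 36 genes with an adjusted p under 0.05 here, none of them among the 80, and 4 of the 80 with an unadjusted p under 0.05 (Snrpd3, Sf3b2, Hnrnpa3 and Rbm19); the lowest adjusted p among the 80 was 0.245, for Snrpd3 at −1.55.

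The median of the 80 for the mother's diet in WD offspring was −0.12, and it was 0.24 without CD_WD replicate 1. The interaction of both diets called none of the 80 and none of all genes by limma (0% background), with no unadjusted p under 0.05 among the 80, and edgeR and DESeq2 called none of the 80 (DESeq2 10 of all genes). The smallest p on the positive side were for Rbm48 (2.22), Rbm41 (3.85) and Rbm14 (1.56), and on the negative side for Snrpd3 (−1.52), Sf3b2 (−0.93) and Hnrnpk (−0.70). The SE of the interaction was 0.82 for Snrpd3 and 1.08 for Rbm48, so that an adjusted p above the threshold does not show the effects of offspring diet to be alike with both mothers.

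Family medians were also taken by library from the deposited values, length trend included, relative to the mean of the 6 CD offspring libraries. The Sm ring was at 1.68 to 3.65 in the 6 WD offspring libraries and at −0.27 to 0.43 in the CD offspring libraries, and the 80 genes together at 0.25 to 1.17 and −0.05 to 0.11. The Rbm genes were at −0.02 to 0.82 in WD offspring and −0.27 to 0.19 in CD offspring. With the length curve removed, the median log2 fold changes averaged over mothers lay closer together. They were 1.42 for the Sm ring, 0.73 for Snrp, 0.62 for Sf3, 0.57 for Hnrnp and 0.48 for Rbm genes. U2af and Srsf genes were at 0.40 and 0.35. With WD mothers the Sm ring was then at 0.650, with 2 of 7 called, beside 0.655 for Rbm genes. CD_WD replicate 1 gave the highest median of the Sm ring, of SR proteins, hnRNPs, SF3 and Rbm genes, and CD_WD replicate 3 the lowest of the 80 among WD offspring. Within groups the median SD of the 80 genes on the log2 scale was 0.42 in WD_WD, 0.66 in CD_WD, 0.40 in WD_CD and 0.29 in CD_CD, where all genes had 0.72, 0.66, 0.60 and 0.43.

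**Figure D5:**
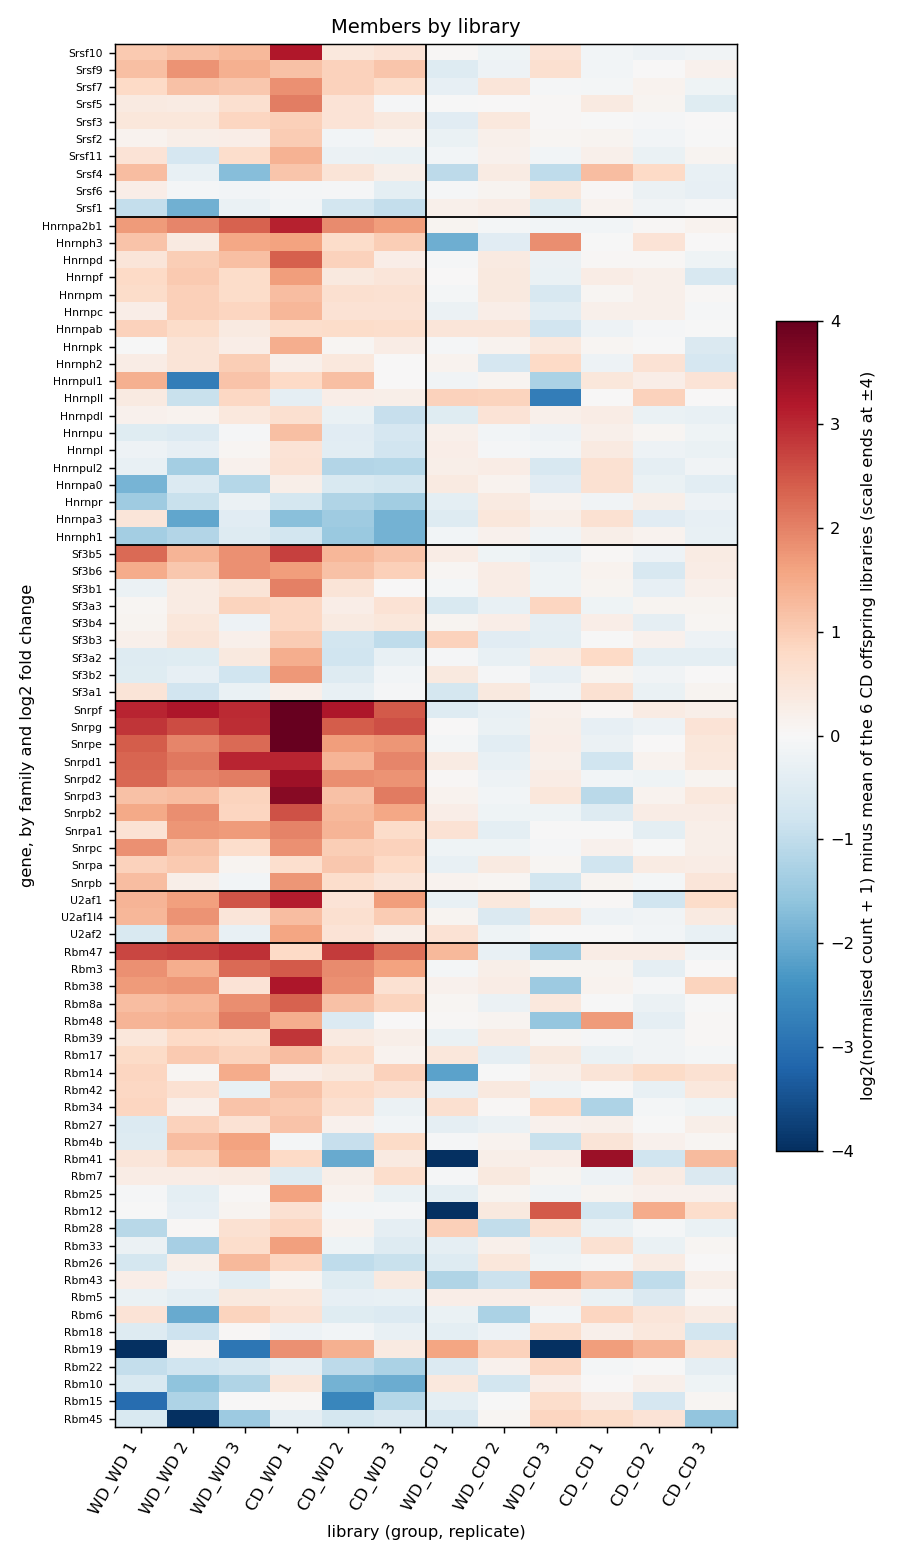
Log2(normalised count + 1) of each of the 80 genes (rows, by family) in each library (columns, WD_WD, CD_WD, WD_CD, CD_CD) minus the mean of the 6 CD offspring libraries; red is higher, blue lower, and colours end at 4 either side. The snRNP block is mostly red in the WD offspring columns, deepest in CD_WD replicate 1, where Snrpg reached 25581 normalised counts. Some low-count genes carry deep blue cells, Rbm41 and Rbm12 in WD_CD replicate 1, and Rbm19 in WD_CD replicate 3 and WD_WD replicate 1.

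Levels were compared between genes as normalised counts per kilobase of transcript. A gene's length is the same in every library, so the length trend between the arms stays in these levels. Its part in the ranks and shares below was not tested. Snrpg held rank 1 of the 80 in WD_WD (5489 ± 639 per kb, SD, n = 3) and in CD_WD (11020 ± 11460), and held rank 9 in WD_CD (778 ± 134) and rank 10 in CD_CD (814 ± 284). Snrpb held rank 4 in WD_WD (2688 ± 1374) and CD_WD (3892 ± 1972), and rank 1 in WD_CD (1665 ± 508) and CD_CD (2070 ± 416). Hnrnpa2b1 held rank 2 in WD_WD (4174 ± 1000) and rank 4 in CD_CD (1040 ± 86.2). Snrpf stayed among the lower genes, at rank 41 in WD_WD (300.3 ± 27.0) and rank 72 in CD_CD (39.4 ± 4.10). The 7 Sm genes made up 28.1 to 44.4% of the summed per-kilobase level of the 80 in WD offspring and 14.7 to 22.5% in CD offspring, so the largest and the smallest shares of the arms did not meet. Within a library the highest Sm gene exceeded the lowest by 16.8 to 29.0 times in WD offspring and 27.3 to 84.7 times in CD offspring, although the ring holds 1 copy of each.

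Other parts of the splicing machinery, from lists that hold none of the 80, were called in both directions. Of their 127 measured genes 26 rose and 18 fell for offspring diet (median 0.07), shares close to the 20.1% of all genes called higher and 17.6% called lower. The counts of each list under the deposited size factors are to be read against these percentages. Counts with the length curve removed are to be read against 16.6% of all genes called higher and 14.2% called lower. The LSM proteins, the ring related to Sm that binds U6 or starts mRNA decay, rose in 7 of 8 cases (median 1.77), led by Lsm7 (3.04 ± 0.39, limma adjusted p 1.08e-04), with 1509, 2466 and 9875 normalised counts in WD offspring against 288, 379 and 483 in CD offspring. They are short as well, and 2 of the 8 stayed called after the length curve was removed. Of 16 tri-snRNP and U5 proteins 4 rose, with Txnl4a at 1.55 ± 0.23 and Nhp2l1 at 1.35 ± 0.24, and the 2 large U5 proteins fell, the scaffold Prpf8 (−1.41 ± 0.32) and the helicase Snrnp200 (−1.94 ± 0.38). Once the length curve was removed Prpf8 was no longer called (−0.526, limma adjusted p 0.227). Snrnp200 (−1.085) and Txnl4a (2.095) stayed called, and Nhp2l1 had no annotated length. Among 26 proteins of the Prp19 complex and the catalytic steps 6 rose, with Bud31 at 1.48 ± 0.23, and 1 fell. After removal of the length curve 5 of the 26 were called higher and 0 lower. Bud31 was then at 0.11 (limma adjusted p 0.757).

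Of 36 other regulators of alternative splicing 6 rose and 11 fell, beside 20.1 and 17.6% of all genes. Rbfox2, which binds intronic GCAUG elements, had 15.2, 59.0 and 123 normalised counts in WD offspring, against 261, 351 and 453 in CD offspring (−2.94 ± 0.59, limma adjusted p 0.00224). Qk, an RNA-binding protein important in vessels, had 230, 253 and 435 in WD offspring, against 734, 845 and 1120 in CD offspring (−1.56 ± 0.26). Matr3 (−1.36 ± 0.23) and Tial1 (−1.95 ± 0.44) fell with the arms apart too. After removal of the length curve 5 of the 36 were called higher and 5 lower. Rbfox2 (−3.20), Matr3 (−1.20) and Tial1 (−2.19) stayed called, and Qk (−0.705, limma adjusted p 0.0553) did not. In the exon junction complex Magoh (1.66 ± 0.36), the partner of Rbm8a, and Alyref (1.12 ± 0.24) rose while Casc3 (−1.86 ± 0.58) and Sap18 (−1.25 ± 0.34) fell. Without the length curve Magoh was at 0.02 and Casc3 at −1.37, neither called (limma adjusted p 0.975 and 0.0887). Alyref (1.53) and Sap18 (−2.98) stayed called. Of 10 nonsense-mediated decay factors none rose and Upf1 (−1.37 ± 0.43) and Smg6 (−1.26 ± 0.35) fell. Both lost the call when the length curve was removed, at −0.699 and −0.449 (limma adjusted p 0.223 and 0.332). Of the 10, 1 was then called higher and 0 lower. Of 13 snRNP assembly factors 1 rose, Gemin7 (1.40 ± 0.28). With the length curve removed 1 of the 13 was called higher and 1 lower. None of 9 SR protein kinases and related genes was called by limma under the deposited size factors, where 1 had an unadjusted p under 0.05. After removal of the length curve 1 of the 9 was called higher.

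In the annotation, 37 of the 80 genes (46.2%) list a transcript marked for nonsense-mediated decay, against 29.8% of the other protein-coding genes of the table, including 9 of 10 Srsf and all 3 U2af genes but 1 of 9 Sf3 genes. Transcripts with a retained intron are listed for 62 (77.5%), against 62.3% of the others. The deposited values are sums per gene and do not separate such isoforms, so a change in a gene's count is not a change in its productive transcript.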

How the data were processed

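RNA-seq of 12 libraries of mouse aortic endothelial cells was analysed from the deposited gene table. Per the submitters' processing notes reads were handled with HISAT2 2.2.1 and featureCounts 2.0.1, besides FastQC 0.12.1, Trim Galore 0.6.10, SAMtools 1.13 and DESeq2, on GRCm38 (mm10). The labels state neither the strand setting nor the treatment of multi-mapping reads. The deposited values are a signal per gene, counts divided by size factors, and all 127860 values were whole multiples of 1 read within 0.01 reads. The authors' log2 fold changes and p-values for the mother's diet are quoted as theirs.

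Values were tested as log2(value + 1) with limma 3.58.1 (trend, R 4.3.3), 1 mean per group, 8 residual degrees of freedom and Benjamini-Hochberg adjustment over 10655 genes at 0.05; fold changes are on that scale, which understates low genes. The filter (mean of at least 1) removed 0 genes. Since the table holds no raw counts, edgeR 4.0.16 and DESeq2 1.42.0 on the recovered reads served as alternatives, beside TMM and total-read scaling, a pseudocount of 10, a mean of at least 50, single libraries left out, a replicate block and removal of a length curve (lowess, span 0.3, 10089 genes with a GENCODE M21 length). The fit was also run on simulated counts that had no length trend and no shift in library makeup. That run cannot speak to the dependence on scaling and length seen here. Group order in the titles was read as mother then offspring, after the series text.

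Members and lists were chosen with earlier results of these data known, so no list has a test. Named genes were, per offspring diet comparison, up to 12 called members per direction with the largest fold change and no overlap; for the mother's diet and the interaction, the 3 smallest p per direction; the 2 most abundant of each family; other members named were chosen after their values were seen. Reads per library limit precision most for genes of few reads; 1 of the 80 had 0 reads in WD_CD replicate 1 (Rbm41) and 1 in WD_CD replicate 3 (Rbm19).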

Additional observations from a re-analysis of the deposited data

How the results depend on the processing

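Of 65 results on named genes, 41 were called. All 41 kept the call with a pseudocount of 10, with a mean of at least 50 and with DESeq2; 39 kept it with TMM, 38 with edgeR, 28 with the length curve removed and 13 with scaling to total reads. With total reads, 49 of the 80 were called for offspring diet averaged over the mothers' diets, 26 with CD mothers and 29 with WD mothers, where 62.9, 41.2 and 44.3% of all genes were called, and the medians were −0.93, −0.96 and −0.94. Under that scaling 14 of the 80 were positive in the averaged comparison, against 58 under the deposited size factors. Among the 65 results alone, those changing sign in the averaged comparison were Sf3b6 (−0.04), Srsf7 (−0.33), Srsf5 (−0.77) and Hnrnpk (−0.99). Sf3b1 (−0.89), Snrpb (−0.69), U2af1l4 (−0.33) and Rbm39 (−0.50) did so too, as did Snrpa1 (−0.027) with CD mothers. By construction this scaling counts the reads of the most abundant genes, whose share differed between the arms. With the length curve removed 9 were called with WD mothers, Snrpb was at -6.9e-05, U2af1l4 at −0.42 and Sf3b2 at 0.25; Sf3b2 was at 0.088 with DESeq2, and the cause was not tested.

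Leaving out single libraries gave 26 to 35 calls averaged over mothers, 5 to 17 with CD mothers, 11 to 26 with WD mothers and 0 to 0 for the mother's diet and the interaction. The medians ran from 0.34 to 0.57, 0.29 to 0.67 and 0.33 to 0.62 for offspring diet, from −0.06 to 0.04 for the mother's diet in CD offspring, from −0.26 to 0.24 in WD offspring and from −0.31 to 0.28 for the interaction. The last 2 were positive only without CD_WD replicate 1; without it and WD_CD replicate 3 together they were 0.24 and 0.27. Sf3b2 ran from −0.42 to 0.14. Snrpa1 with CD mothers and U2af1 with WD mothers lost the call without any of 8 and 9 single libraries.

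Replicate numbers did not pair the libraries: over 18 same-numbered pairs the correlation of deviations ran from −0.23 to 0.07. With the replicate block 31 of the 80 were called averaged over mothers (28 higher, 3 lower), 13 with CD mothers, 14 with WD mothers and 0 for the rest.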
